A study of Mus musculus with 4 samples.

Results

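The CXC chemokine ligands measured in sorted mouse liver macrophages were Cxcl1, Cxcl2, Cxcl3, Cxcl9, Cxcl10, Cxcl13, Cxcl14, Cxcl16 and Pf4. They were matched by symbol, and all 9 were found among the 29247 gene IDs of a table of RNA-seq read counts. The APAP Cxcr4+ group held 3 libraries of Cxcr4+ macrophages, flow sorted from the livers of C57BL6J mice aged 8 weeks at 72 h after 300 mg/kg acetaminophen (APAP) in saline, given into the peritoneum. The control was 1 library of liver macrophages from C57BL6J mice of the same age, and the labels describe no sort gate for it. APAP is a painkiller that kills hepatocytes at high doses. Exposure to APAP, the Cxcr4+ sort and the identity of the lone control library cannot be told apart in this design. Whether the APAP libraries are from different mice is not stated, and the p-values cover the spread between these libraries, which may be technical.

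CXC chemokines are small secreted proteins that guide leukocytes through G protein-coupled receptors. Cxcl1, Cxcl2 and Cxcl3 carry a glutamate-leucine-arginine (ELR) motif and draw neutrophils through Cxcr2. Cxcl9 and Cxcl10 are induced by interferons and draw T cells and NK cells through Cxcr3. Cxcl13 draws B cells through Cxcr5, and Cxcl16 is made as a membrane protein whose receptor is Cxcr6. Pf4, also called Cxcl4, is best known from platelets and is also transcribed by mouse macrophages, and Cxcl14 is a homeostatic ligand of epithelia and fibroblasts.

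Library totals were 48282283, 52043418 and 56702837 counts for APAP Cxcr4+ and 49950909 counts for the control. Genes with reads numbered 23376, 23854 and 23880 in APAP Cxcr4+, against 18793 in the control, so counts of 0 were more frequent in the control. The part of this difference in the results for genes with few or 0 control counts was not tested. Levels are CPM, the counts scaled to a common library total with TMM factors, and 1 count was worth 0.0171 to 0.0199 CPM in APAP Cxcr4+ and 0.0223 CPM in the control. The sort marker Cxcr4 was at 84.5, 132 and 101 CPM in APAP Cxcr4+, against 41.3 CPM in the control. The macrophage marker Adgre1, the F4/80 antigen, was at 1196, 1463 and 1567 CPM in the APAP Cxcr4+ libraries, against 2059 CPM in the control. Among markers of other origins, 6 of 6 monocyte-derived cell markers rose, while 9 of 10 markers of Kupffer cells, which reside in the liver, fell and 0 rose. Among hepatocyte markers, 10 of 12 fell and 0 rose. The APAP columns carry no replicate number, and the libraries are called the first, the second and the third by column.

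Of the 9 members, 5 fell, 0 rose and 4 did not pass the test (edgeR quasi-likelihood test, Benjamini-Hochberg adjusted p under 0.05). By this rule 18.9% of all 18715 genes tested fell and 25.4% rose, 44.3% in all. No member rose by the DESeq2 Wald test or limma-voom either, and 0 were higher at an unadjusted p under 0.05. The members that fell were Cxcl13, Cxcl9, Cxcl10, Cxcl16 and Pf4, while Cxcl1, Cxcl2, Cxcl3 and Cxcl14 did not pass. The median log2 fold change was -0.88 over the 9 members and 0.08 over all genes tested. All 3 APAP Cxcr4+ libraries lay below the control for 8 members (39.2% of all genes) and above it for 1, Cxcl3 (45.7% of all genes), and for 0 members was the control inside their range (15.2% of all genes). In bulk libraries, fewer cells of a type and less RNA per cell cannot be told apart.

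**Figure D1:**
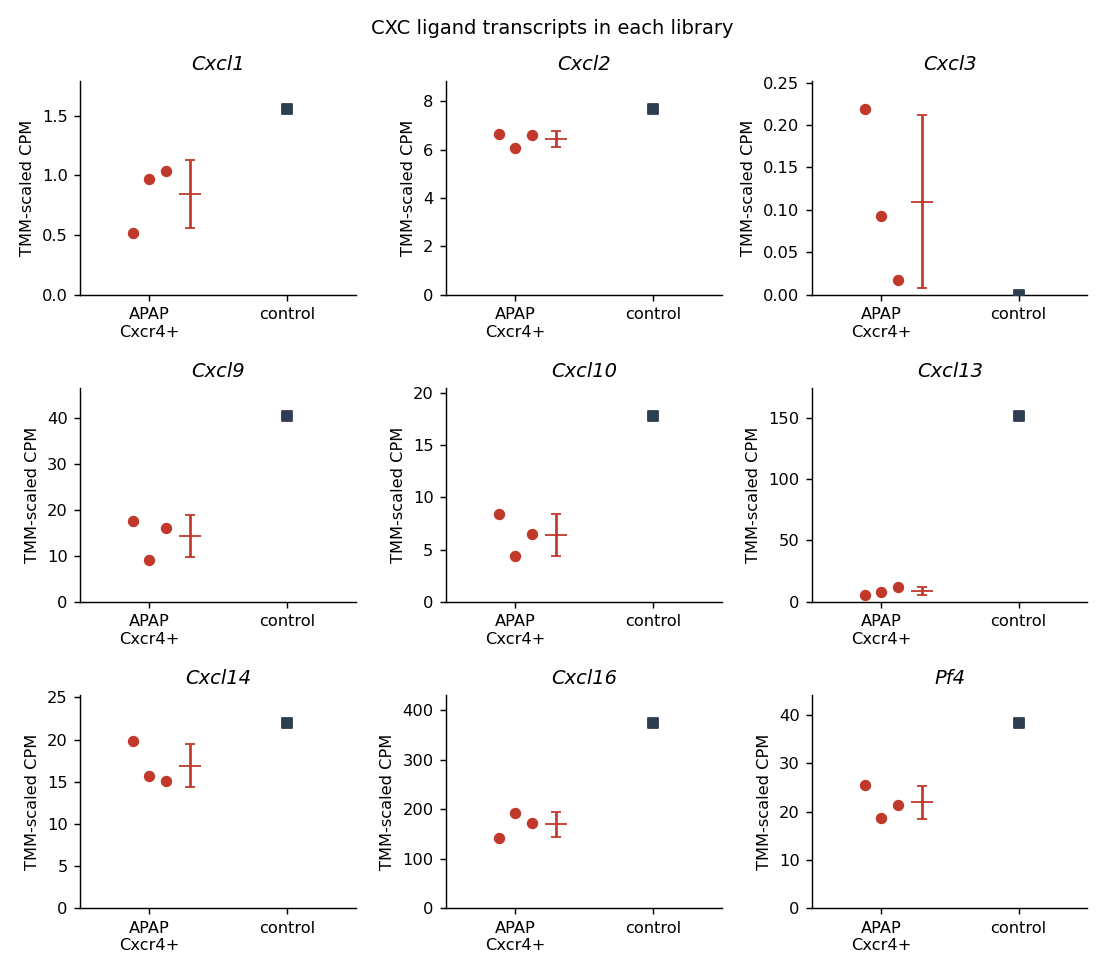
Level of each CXC ligand in TMM-scaled CPM (linear axis from 0) in the 3 APAP Cxcr4+ libraries (red circles, with mean and SD as a bar beside them) and the 1 control library (dark square). The circles lie below the square in every panel except Cxcl3, and the relative gap is widest for Cxcl13.

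On chromosome 5 lie 7 of the 9 members, with Cxcl16 on chromosome 11 and Cxcl14 on chromosome 13. The start sites of Cxcl1 and Cxcl2 are 12654 bases apart and those of Cxcl9 and Cxcl10 are 20810 bases apart (RefSeq, GRCm38.p6, used for all coordinates here, while the counts are on mm39). RefSeq promoters, from 250 bases before to 50 after the start, matched 8 of the 9 members, all but Cxcl16. They were searched on both strands for an NF-kB motif, for the interferon-stimulated response element (ISRE: GAAA, any 2 bases, GAAA) and for the gamma-activated sequence (GAS: TTC, any 3 bases, GAA). A match describes the letters only.

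The NF-kB motif was found in 4 of the 8 promoters, those of Cxcl1, Cxcl2, Cxcl3 and Cxcl10, and in 8.46% of all 32851 promoters of this length. Windows of 51 bases are shown for the ELR ligands because they share the same 11 bases, in capitals, which begin 71, 97 and 73 bases before the starts of Cxcl1, Cxcl2 and Cxcl3. The 11 bases hold overlapping matches on both strands. The windows are on the plus strand at chr5:90891154-90891204 for Cxcl1, chr5:90903782-90903832 for Cxcl2 and chr5:90786008-90786058 for Cxcl3.
Cxcl1: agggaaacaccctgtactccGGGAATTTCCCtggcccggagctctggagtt
Cxcl2: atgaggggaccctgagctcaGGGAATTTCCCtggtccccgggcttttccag
Cxcl3: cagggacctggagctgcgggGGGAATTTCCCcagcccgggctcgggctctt

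Whole promoters are shown for the neighbours Cxcl9 and Cxcl10, which fell together, and for Cxcl13, which fell furthest, 5′ to 3′ along the gene with motif matches in capitals. Cxcl10 (minus strand, chr5:92348840-92349139) has an ISRE match that begins 213 bases before the start and NF-kB matches that begin 159, 104 and 103 bases before it, the last pair overlapping. Cxcl9 (minus strand, chr5:92328030-92328329) and Cxcl13 (plus strand, chr5:95956689-95956988) hold none of these letters in this window. The ISRE was found in 2 of the 8 members, Cxcl10 and Cxcl14, and in 3.44% of all promoters. The GAS was found in 1, Cxcl14, and in 8.3% of all promoters.
Cxcl10: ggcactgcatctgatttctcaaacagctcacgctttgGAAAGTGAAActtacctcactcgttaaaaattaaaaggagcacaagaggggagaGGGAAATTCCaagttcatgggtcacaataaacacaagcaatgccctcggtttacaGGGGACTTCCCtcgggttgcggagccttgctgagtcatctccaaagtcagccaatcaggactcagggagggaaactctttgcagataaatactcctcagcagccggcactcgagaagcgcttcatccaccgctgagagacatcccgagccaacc
Cxcl9: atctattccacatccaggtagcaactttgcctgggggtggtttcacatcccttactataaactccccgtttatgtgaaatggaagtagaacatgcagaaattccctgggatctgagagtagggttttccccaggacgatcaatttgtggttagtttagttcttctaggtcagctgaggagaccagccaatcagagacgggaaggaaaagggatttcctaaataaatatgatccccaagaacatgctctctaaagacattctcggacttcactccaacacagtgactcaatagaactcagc
Cxcl13: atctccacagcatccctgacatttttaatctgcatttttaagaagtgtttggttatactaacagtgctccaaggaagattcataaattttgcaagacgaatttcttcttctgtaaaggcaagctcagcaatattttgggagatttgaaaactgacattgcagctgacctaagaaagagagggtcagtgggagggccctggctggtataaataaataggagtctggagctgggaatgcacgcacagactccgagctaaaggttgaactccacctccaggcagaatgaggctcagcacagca

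Cxcl13, the attractant of B cells, fell furthest of the members. It had 269, 431 and 717 counts in the APAP Cxcr4+ libraries, against 6831 counts in the control. In scaled levels this was 5.35, 8.02 and 12.2 CPM in the APAP Cxcr4+ libraries, against 152 CPM in the control. The first library was the lowest and the third the highest, 2.29 times apart, and all 3 were far below the control. The APAP Cxcr4+ mean of 8.54 ± 3.47 CPM (SD, n = 3) was 0.0562 of the control level. The log2 fold change was -4.15 (adjusted p = 0.00123, SE 0.35), at rank 41 from the lowest of the 18715 genes tested.

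Of 10 Kupffer cell markers, 9 fell, as Cxcl13 did. Marco lay above the control, at log2 ratios of 0.71, 0.87 and 0.19, and did not pass. The summed level of the 10 markers was 13240.2, 16478 and 16519 CPM in the APAP Cxcr4+ libraries, against 34724 CPM in the control. In each APAP Cxcr4+ library the log2 ratio to the control was lower for Cxcl13, at -4.83, -4.24 and -3.64, than for any of the 10 markers. The nearest was the ficolin Fcna, at -2.89, -2.48 and -2.10, and the lectin Clec4f, which defines Kupffer cells, stood at -2.23, -1.68 and -1.49. Both markers were lowest in the first library and highest in the third, as Cxcl13 was. Of the 10 markers, 8 were lowest in the first library and 8 were highest in the third. Per 1000 counts of Clec4f, Cxcl13 had 1.92, 1.96 and 2.62 in the APAP Cxcr4+ libraries, against 11.6 in the control. Per 1000 counts of Timd4, a phosphatidylserine receptor of resident macrophages, it had 22.1, 26.1 and 37.8 in the APAP Cxcr4+ libraries, against 161 in the control. The control was the highest in both ratios, which need no library scaling.

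**Figure D2:**
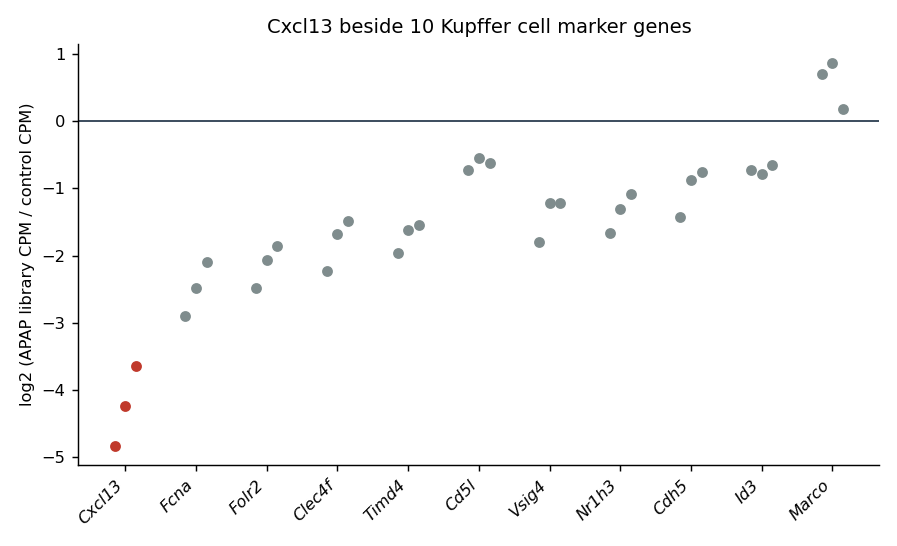
Log2 ratio of the CPM of each APAP Cxcr4+ library to the CPM of the control for Cxcl13 (red) and 10 Kupffer cell markers (grey), with libraries 1 to 3 from left to right for each gene. The Cxcl13 points, -4.83 to -3.64, lie below every grey point, and Marco is the marker above 0.

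Cxcr5, the receptor of Cxcl13 on B cells and follicular helper T cells, was at 7.58, 13.1 and 6.77 CPM in the APAP Cxcr4+ libraries, against 0.890 CPM in the control. On the log2 scale the fold change of Cxcr5 was 3.36 (adjusted p = 0.00509, SE 0.52). B cell markers were higher too: of 8 tested, 7 rose and 0 fell, and their summed level was 359.9, 531 and 418 CPM in the APAP Cxcr4+ libraries, against 136 CPM in the control. The B cell receptor chain Cd79a was at 28.2, 50.1 and 31.5 CPM in the APAP Cxcr4+ libraries, against 3.36 CPM in the control, highest in the second library, as Cxcr5 was. The part of B cells in the Cxcr5 level was not tested.

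Lymphotoxin receptor signalling through non-canonical NF-kB is known to induce Cxcl13 in stromal cells. Of 9 genes of this list tested, 4 rose, 3 fell and 2 did not pass. The receptor gene Ltbr had a log2 fold change of -0.63 (adjusted p = 0.00499, SE 0.097) and the NF-kB subunit Relb one of -1.02 (adjusted p = 0.00187, SE 0.11). The ligand genes Ltb and Tnfsf14 had log2 fold changes of 1.24 (adjusted p = 0.00505, SE 0.19) and 2.11 (adjusted p = 0.00296, SE 0.27). Ltbr and Relb were thus lower and Ltb and Tnfsf14 higher in APAP Cxcr4+. The part of B cells, T cells and NK cells in the Ltb and Tnfsf14 levels was not tested. The kinase gene Map3k14 rose, at a log2 fold change of 0.42 (adjusted p = 0.0223, SE 0.10). The subunit gene Nfkb2 did not pass, at -0.015 (adjusted p = 0.921, SE 0.11).

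Cxcl9 and Cxcl10, the interferon-induced ligands of Cxcr3, both fell. Cxcl9 was at 17.7, 8.99 and 16.1 CPM in the APAP Cxcr4+ libraries, against 40.6 CPM in the control. Cxcl10 was at 8.40, 4.34 and 6.50 CPM in the APAP Cxcr4+ libraries, against 17.8 CPM in the control. The second library was the lowest for each, and no APAP Cxcr4+ library reached the control. The log2 fold change was -1.51 (adjusted p = 0.0156, SE 0.33) for Cxcl9 and -1.48 (adjusted p = 0.0153, SE 0.32) for Cxcl10. Cxcl9 counts per Cxcl10 count were 2.10, 2.07 and 2.48 in the APAP Cxcr4+ libraries, against 2.27 in the control, so the control lay inside the range of the other libraries.

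By Euclidean distance between mean-centred log2 CPM over the 4 libraries, Cxcl9 was the gene nearest to Cxcl10, at 0.206. Nearest to Cxcl9 was Pzp, a plasma protease inhibitor gene of hepatocytes, at 0.156, and Cxcl10 came next. Pzp was at 13.8, 8.14 and 14.1 CPM in the APAP Cxcr4+ libraries, against 34.6 CPM in the control. Hepatocyte markers showed the same low library: 9 of 12 were lowest in the second library, and albumin (Alb) was at 218, 177 and 269 CPM in the APAP Cxcr4+ libraries, against 492 CPM in the control. The high library differed: 11 of the 12 were highest in the third library, whereas Cxcl9 and Cxcl10 were highest in the first. The part of hepatocyte RNA in the Cxcl9 and Cxcl10 levels was not tested.

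Interferon gamma signalling genes went both ways. Of 8 genes of this list tested, 2 rose, 3 fell and 3 did not pass. Without the second APAP library 2 passed, while calls over all genes went from 8295 of 18715 to 5001 of 18335. Irf1, an interferon-induced transcription factor gene named after its values were seen, was at 167, 101 and 128 CPM in the APAP Cxcr4+ libraries, against 245 CPM in the control. Its log2 fold change was -0.89 (adjusted p = 0.0312, SE 0.25), and without the second library its adjusted p was 0.0523. Irf1 was lowest in the second library, like Cxcl9 and Cxcl10. Ifng, the interferon gamma gene, was at 1.23, 0.484 and 0.307 CPM in the APAP Cxcr4+ libraries, against 0.267 CPM in the control, and did not pass (adjusted p = 0.29).

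Cxcr3, the receptor of Cxcl9 and Cxcl10 and named after its values were seen, had 704, 927 and 766 counts in the APAP Cxcr4+ libraries, against 583 counts in the control, and did not pass, at a log2 fold change of 0.19 (adjusted p = 0.456, SE 0.19), and 0.43 by a robust correction for transcript length that was added after values were seen. Of 9 T cell markers 6 rose and 0 fell, as did 6 and 0 of 8 NK cell markers.

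Cxcl16, a ligand made on the membrane, was the highest member per length in APAP Cxcr4+. It was at 143, 192 and 173 CPM in the APAP Cxcr4+ libraries, against 376 CPM in the control. All 3 libraries lay below the control, with a mean of 169.7 ± 24.8 CPM (SD, n = 3), or 0.452 of the control level. Its fold change on the log2 scale was -1.15 (adjusted p = 0.00369, SE 0.16). Exons of the opposite-strand gene Zmynd15 cover 552 of the 3021 exon bases of Cxcl16 (18.3%, GENCODE M21). Zmynd15 had 816, 1292 and 1380 counts in APAP Cxcr4+, against 1099 in the control, and with the strand setting not known, reads of the shared stretch cannot be told apart.

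Cxcr6, the receptor of Cxcl16 on NKT, T and innate lymphoid cells, was at 7.64, 8.21 and 6.19 CPM in the APAP Cxcr4+ libraries, against 3.96 CPM in the control. Its log2 fold change was 0.89 (adjusted p = 0.0266, SE 0.23), and without the second library its adjusted p was 0.0845. Adam10, a protease known to release Cxcl16 from the membrane, was at 528, 537 and 546 CPM in the APAP Cxcr4+ libraries, against 389 CPM in the control. The log2 fold change of Adam10 was 0.47 (adjusted p = 0.0128, SE 0.096), its adjusted p without the second library 0.0767 and its value by the robust correction for transcript length 0.26.

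Proteases that shed or trim CXC ligands changed in both directions. Of 13 genes of this list tested, 6 rose, 2 fell and 5 did not pass. Without the second APAP library 4 passed, while calls over all genes went from 8295 of 18715 to 5001 of 18335. The collagenase gene Mmp8, also a neutrophil marker, had 2144, 1189 and 923 counts in the APAP Cxcr4+ libraries, against 6 counts in the control. Its log2 fold change was 7.62 (adjusted p = 0.00326, SE 1.01), and by limma-voom its adjusted p was 0.0925. Anpep, an aminopeptidase, and Mmp14, a membrane protease, had log2 fold changes of 3.44 (adjusted p = 0.0061, SE 0.57) and 1.36 (adjusted p = 0.00456, SE 0.20). The proteases that fell were the cathepsins Ctsl and Ctss, the second named after its values were seen. Ctsl was at 329, 305 and 316 CPM in the APAP Cxcr4+ libraries, against 444 CPM in the control. It had a log2 fold change of -0.49 (adjusted p = 0.01, SE 0.094), -0.85 by the robust length correction, and an adjusted p of 0.0686 without the second library. Ctss differed by -0.42 (adjusted p = 0.0362, SE 0.12) on that scale.

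Pf4, a heparin-binding chemokine, was at 25.5, 18.7 and 21.5 CPM in the APAP Cxcr4+ libraries, against 38.4 CPM in the control. Every APAP Cxcr4+ library was below the control, with a mean of 21.9 ± 3.42 CPM (SD, n = 3), or 0.570 of the control level. On the log2 scale Pf4 differed by -0.81 (adjusted p = 0.0147, SE 0.18). Corrected for transcript length it was -0.87 by the least-squares trend and -0.44 by the robust trend. Per 1000 counts of Adgre1, Pf4 had 21.3, 12.8 and 13.7 in the APAP Cxcr4+ libraries, against 18.7 in the control, so the control lay inside the range of the other libraries. By the same ratio Cxcl16 had 120, 131 and 111 in the APAP Cxcr4+ libraries, against 182 in the control. Cxcl13 had 4.48, 5.48 and 7.81, against 73.8 in the control, so for both the control was the highest.

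Platelet markers gave few counts apart from Clec1b, which Kupffer cells also express. Of 5 tested, 1 rose, 1 fell and 3 did not pass. Ppbp, the platelet basic protein gene, had 2, 4 and 3 counts in the APAP Cxcr4+ libraries, against 4 counts in the control, and Gp6 had 0 counts in every library. Itga2b, the platelet integrin, was at 0.796, 1.19 and 1.23 CPM in the APAP Cxcr4+ libraries, against 0.534 CPM in the control, and did not pass (adjusted p = 0.115). Treml1 rose, with 97, 95 and 131 counts in the APAP Cxcr4+ libraries, against 0 counts in the control, and Clec1b fell, at 218, 254 and 280.4 CPM in the APAP Cxcr4+ libraries, against 517 CPM in the control.

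Among the ELR ligands, Cxcl2 was the most abundant per length. It was at 6.65, 6.05 and 6.62 CPM in the APAP Cxcr4+ libraries, against 7.68 CPM in the control. The 3 libraries lay close together, with a coefficient of variation of 5.23%, and below the control. Cxcl2 did not pass, with a log2 fold change of -0.25 (adjusted p = 0.258, SE 0.17), and -0.052 by the robust length correction. Counting intervals (exact Poisson, 95%, counting error only) were 5.95 to 7.40, 5.41 to 6.75 and 5.98 to 7.31 CPM in APAP Cxcr4+, against 6.89 to 8.53 CPM in the control, and only the second did not overlap it.

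Cxcl1 was low in all libraries. It had 26, 52 and 61 counts in the APAP Cxcr4+ libraries, against 70 counts in the control. In scaled levels it was at 0.517, 0.968 and 1.04 CPM in the APAP Cxcr4+ libraries, against 1.56 CPM in the control, lowest in the first library. Its log2 fold change of -0.88 (adjusted p = 0.161, SE 0.45) did not pass, and the counting intervals of the second and the third library, 0.723 to 1.27 and 0.796 to 1.34 CPM, overlapped the 1.21 to 1.97 CPM of the control.

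Cxcl3 was barely detected, with 11, 5 and 1 counts in the APAP Cxcr4+ libraries, against 0 counts in the control. A count of 0 allows up to 0.0668 CPM in the control at a floor of 3 counts. The APAP Cxcr4+ mean of 0.110 ± 0.102 CPM (SD, n = 3) was 1.64 times that floor, while the third library lay under it. The edgeR test did not pass (adjusted p = 0.184). Cxcl1, Cxcl2 and Cxcl3 are paralogs with similar coding sequence, and how shared reads were counted is not known, so their split is uncertain.

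Cxcr2, the receptor of the ELR ligands and a neutrophil marker, had 729, 631 and 142 counts in the APAP Cxcr4+ libraries, against 4 counts in the control. Cxcr2 had a log2 fold change of 6.71 (adjusted p = 0.0201, SE 1.60), and by limma-voom its adjusted p was 0.289. Of 9 neutrophil markers tested 6 rose and 0 fell, with a summed level of 344, 269 and 189.9 CPM in the APAP Cxcr4+ libraries, against 116 CPM in the control. Most of that sum was Csf3r, the receptor gene for granulocyte colony-stimulating factor, at 231, 199 and 153 CPM in the APAP Cxcr4+ libraries, against 111 CPM in the control. The sum, Cxcr2 and Cxcl3 were highest in the first library and lowest in the third. The part of neutrophils in these levels was not tested.

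**Figure D3:**
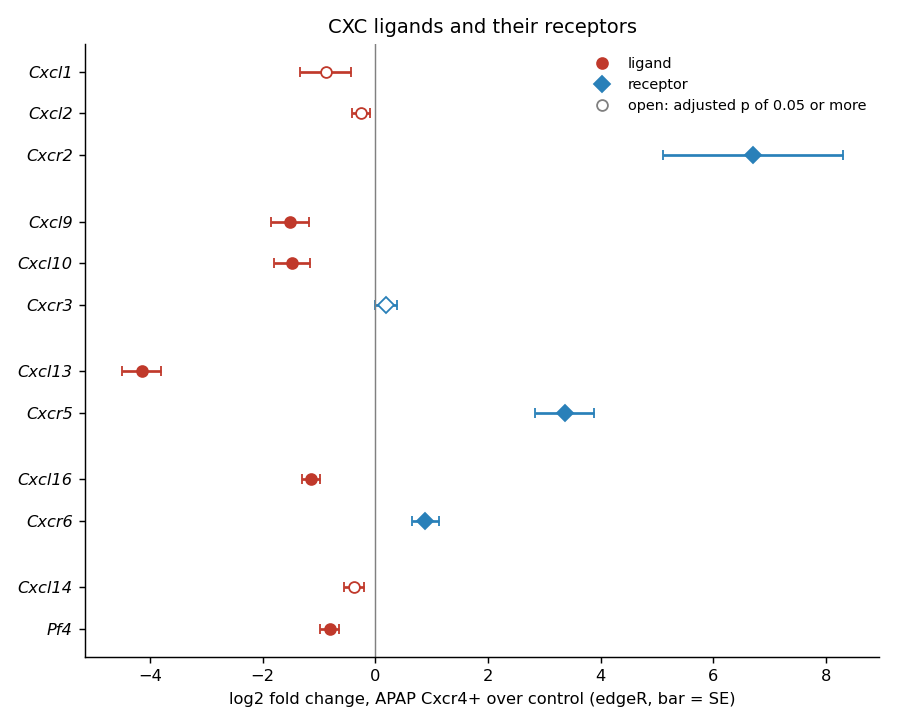
Log2 fold change of APAP Cxcr4+ over control (edgeR, bars are standard errors) for CXC ligands (red circles) and their receptors (blue diamonds), with open symbols at an adjusted p of 0.05 or more. Cxcl13 at -4.15 and Cxcl16 at -1.15 lie left of 0, and their receptors Cxcr5 at 3.36 and Cxcr6 at 0.89 lie right of it. Cxcl3 is left out because the control had 0 counts.

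Receptors and scavenging receptors of CXC ligands were mixed. Of 8 genes of this list tested, 3 rose, 1 fell and 4 did not pass. Cxcr2, Cxcr5 and Cxcr6 rose. The scavenging receptor Ackr1 was at 0.179, 0.391 and 0.171 CPM in the APAP Cxcr4+ libraries, against 0.957 CPM in the control, with a log2 fold change of -1.95 (adjusted p = 0.0425, SE 0.59). Its adjusted p was 0.0814 by the DESeq2 Wald test, 0.0568 without the first library and 0.0572 without the third.

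Toll-like receptor 4 signalling through canonical NF-kB is a known inducer of Cxcl1 and Cxcl2 in macrophages. Of 17 genes of this list tested, 7 rose, 5 fell and 5 did not pass. Without the second APAP library 7 passed, while calls over all genes went from 8295 of 18715 to 5001 of 18335. The receptor gene Tlr4 rose, at 118, 119 and 125 CPM in the APAP Cxcr4+ libraries, against 95.3 CPM in the control. Its log2 fold change was 0.34 (adjusted p = 0.028, SE 0.090). The endotoxin coreceptor gene Cd14 fell, at 111, 161 and 176 CPM in the APAP Cxcr4+ libraries, against 418 CPM in the control, with a log2 fold change of -1.49 (adjusted p = 0.00513, SE 0.23). Ly96, which encodes the receptor partner MD-2, had one of -1.16 (adjusted p = 0.00181, SE 0.12). The adaptor gene Traf6 and the NF-kB subunit gene Rel had log2 fold changes of 0.80 (adjusted p = 0.00249, SE 0.095) and 0.85 (adjusted p = 0.00188, SE 0.09), and of 0.32 and 0.41 by the robust correction for transcript length.

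Cxcl14, the homeostatic ligand, was at 19.9, 15.7 and 15.1 CPM in the APAP Cxcr4+ libraries, against 22.0 CPM in the control. The first library was the nearest to the control, and all 3 were below it. The log2 fold change of -0.38 (adjusted p = 0.137, SE 0.18) did not pass. Without the first library it was -0.51 and passed (adjusted p = 0.012), and by the robust length correction it was -0.15. Stellate cell and fibroblast markers went both ways, with 4 of 10 higher and 4 lower: Col1a1, a collagen gene, had 410, 376 and 405 counts in the APAP Cxcr4+ libraries, against 36 counts in the control, and Lrat, a vitamin A storage gene, was at 2.83, 2.90 and 2.76 CPM in the APAP Cxcr4+ libraries, against 8.86 CPM in the control. Their part in the Cxcl14 level was not tested.

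Per length, the order of the members differed between the groups. In APAP Cxcr4+, Cxcl16 was highest at 47.4 to 63.7 CPM per kb of exon, then Pf4 at 25.9 to 35.4. Cxcl14 at 8.28 to 10.9 overlapped Cxcl13 at 4.65 to 10.6, which overlapped Cxcl9 at 2.98 to 5.85. Cxcl2 at 2.93 to 3.21 and Cxcl10 at 1.93 to 3.73 overlapped Cxcl9 and each other. Cxcl1 at 0.276 to 0.555 and Cxcl3 at 0.00488 to 0.0626 were lowest. In the control the order was Cxcl13 at 132, Cxcl16 at 124, Pf4 at 53.3, Cxcl9 at 13.5, Cxcl14 at 12.1, Cxcl10 at 7.92, Cxcl2 at 3.71 and Cxcl1 at 0.831 CPM per kb.

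The members summed to 111, 114 and 118 CPM per kb in APAP Cxcr4+, against 348 CPM per kb in the control. Cxcl13 made up 4.18%, 6.14% and 9.01% in the APAP Cxcr4+ libraries, against 38.0% in the control. Cxcl16 made up 42.5%, 56.1% and 48.6% in the APAP Cxcr4+ libraries, against 35.8% in the control. Pf4 made up 31.7%, 22.8% and 25.2% in the APAP Cxcr4+ libraries, against 15.3% in the control. These are shares of a sum, so a lower share of Cxcl13 raises the shares of the others.

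**Figure D4:**
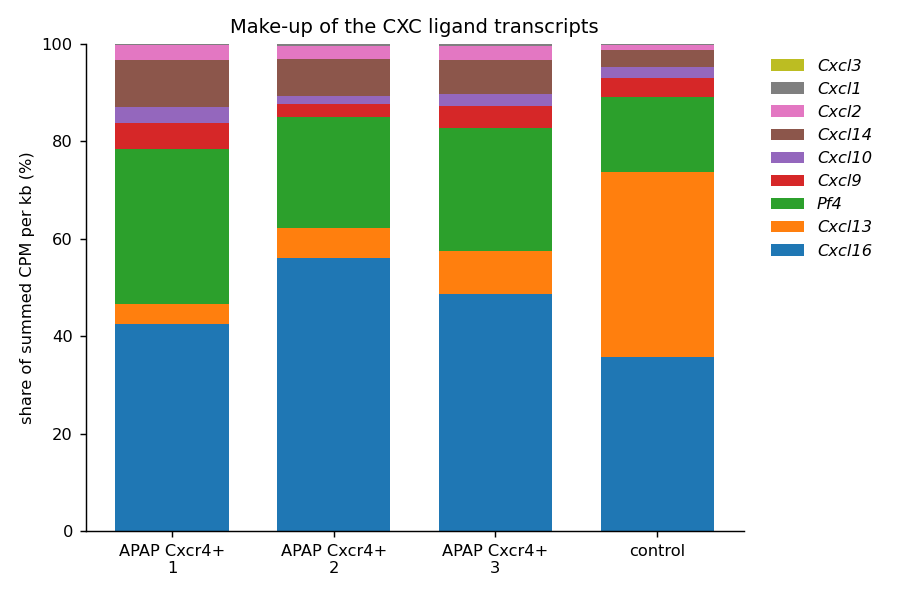
Share of each CXC ligand in the summed CPM per kb of the 9 members, in percent, for APAP Cxcr4+ libraries 1 to 3 and the control. Cxcl13 takes 4.18% to 9.01% in the APAP Cxcr4+ libraries and 38.0% in the control.

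Cxcl12, the ligand of Cxcr4 and not a member, was at 5.31, 5.25 and 4.39 CPM in the APAP Cxcr4+ libraries, against 14.5 CPM in the control, with a log2 fold change of -1.54 (adjusted p = 0.00219, SE 0.18). Cxcl11 had 10, 6 and 0 counts in the APAP Cxcr4+ libraries, against 4 counts in the control, and did not pass (adjusted p = 0.939), and Cxcl5 had 0 counts in every library. The nearest gene to Cxcl13 was the lectin gene Cd209f, at a distance of 0.938 and a level of 2.21, 6.55 and 8.51 CPM in the APAP Cxcr4+ libraries, against 58.1 CPM in the control. For the remaining members the nearest genes were Slc27a6 for Cxcl1 (0.134), Stk16 for Cxcl2 (0.0225), Atp6v0d1 for Cxcl14 (0.0292), Ap4s1 for Cxcl16 (0.0426) and Dnaja1 for Pf4 (0.0681). For Cxcl3, which had few counts, the nearest gene was the neutrophil marker S100a8 (0.418).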

How the data were processed

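Messenger RNA of 4 libraries was prepared with a Tecan kit, per the labels. The deposited values are raw read counts per gene. The submitters' processing notes name HISAT2, Subread and build mm39. Annotation, strand setting and the handling of shared reads are not given in the sources used, so paralogs and overlapping genes may split reads. Symbols matched 28926 of 29247 IDs (98.9%).

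After filterByExpr (minimum count 10, minimum total 15), 18715 genes were tested, APAP Cxcr4+ over control, with the edgeR 4.0.16 quasi-likelihood test in R 4.3.3 (TMM scaling, Benjamini-Hochberg adjustment, threshold 0.05). The spread rests on the APAP libraries (2 residual degrees of freedom), since a lone control gives none and is taken to vary as they do. The test was checked on simulated counts. Exon lengths are from GENCODE M21.

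The members, gene lists and tests were chosen with earlier results of these data known. The motifs, the promoters shown and the within-library count ratios were chosen after values were seen. Members are all named, as are the first entry and up to 4 smallest p-values of each list; other genes are named after their values were seen, and some list results are not reported here. Nearest genes have an average log2 CPM of at least 3 (prior count 2). Alternatives were DESeq2 1.42.0 (size factors, Wald test), upper-quartile scaling, limma-voom (limma 3.58.1), other count filters, each APAP library left out, 3 gene classes left out and a loess correction for transcript length, least-squares as planned and robust as added later.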

Additional observations from a re-analysis of the deposited data

How the results depend on the processing

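Cxcl9, Cxcl10, Cxcl13, Cxcl16 and Pf4 stayed lower and under 0.05 in each alternative with a test, with Pf4 the closest to the threshold (adjusted p = 0.0389 without the second APAP library). Cxcl14 ran from -0.51 to -0.29 as APAP libraries were left out in turn. Calls over all genes ran from 5001 to 9380 and over the pathway lists from 28 to 56, lowest without the second library; the cause was not tested. The correction for transcript length has no test. A first version subtracted a mean trend and added back the median fold change, an error that moved every member by about the same amount. The centred least-squares trend replaced it, and under it each member moved by less than the spread between the APAP libraries. A robust trend, chosen after the values of the first version had been seen, gave -0.052 for Cxcl2, -0.15 for Cxcl14 and -0.44 for Pf4. The median of all genes was 0.08, and 0.53 with no count filter. Cxcl1 and Cxcl3 were not tested at 5 CPM, nor Cxcl3 without the first or the second library, and DESeq2 gave Cxcl3 no adjusted p. Cxcl3 rests on 11 counts or fewer in each library. No paired analysis was possible because the control is 1 library and the APAP columns carry no replicate number.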

Other observations

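Genes that set the life of chemokine transcripts changed in both directions. Of 8 genes of this list tested, 5 rose, 1 fell and 2 did not pass. Without the second APAP library 2 passed, while calls over all genes went from 8295 of 18715 to 5001 of 18335. Zfp36, which encodes tristetraprolin, a protein that marks AU-rich transcripts for decay, was at 740.2, 811 and 739 CPM in the APAP Cxcr4+ libraries, against 534 CPM in the control. Its log2 fold change was 0.52 (adjusted p = 0.0149, SE 0.11), and without the second library its adjusted p was 0.0796. Zfp36l2, its relative, had a log2 fold change of 1.20 (adjusted p = 0.00143, SE 0.11). Traf3ip2, which encodes the interleukin 17 receptor adaptor Act1, had one of 1.74 (adjusted p = 0.00425, SE 0.25). The gene that fell was Elavl1, which encodes the stabilising protein HuR, at 68.0, 62.8 and 67.8 CPM in the APAP Cxcr4+ libraries, against 87.2 CPM in the control. It had a log2 fold change of -0.40 (adjusted p = 0.0186, SE 0.093), -1.03 by the robust length correction, and an adjusted p of 0.087 without the second library.

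Proteoglycans that carry secreted chemokines also went both ways. Of 8 genes of this list tested, 2 rose, 4 fell and 2 did not pass. Without the second APAP library 3 passed, while calls over all genes went from 8295 of 18715 to 5001 of 18335. Srgn, the gene of the granule proteoglycan serglycin, was at 103, 116 and 115 CPM in the APAP Cxcr4+ libraries, against 183 CPM in the control, with a log2 fold change of -0.72 (adjusted p = 0.00376, SE 0.10). The versican gene Vcan, known from monocytes, had 128, 114 and 130 counts in the APAP Cxcr4+ libraries, against 0 counts in the control.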
